A study of Mus musculus with 23 samples.

Results

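The 10 genes described here are Nfe2l2, which encodes the transcription factor NRF2, and 9 antioxidant genes known as its targets, namely Hmox1, Nqo1, Gclc, Gclm, Srxn1, Txnrd1, Gsr, Prdx1 and Slc7a11. They were taken by name and were 10 of the 27466 genes in the count table. All 10 had enough reads to be among the 19255 genes tested. In the mouse testis 6 of them (Nfe2l2, Gsr, Hmox1, Gclc, Gclm and Txnrd1) fell in at least 1 step between 10.5 and 36.5 days postpartum (dpp). The fall of Gclm was lost in 8 of 14 alternative fits. Of these 6, 5 (all but Gclm) were higher in explants cultured for 30 days than in the testis of the same age. That direction was called for 32.4% of all genes tested. The libraries of 36.5 dpp end the last step and are also the reference for these explants. A fall to 36.5 dpp and the excess in explants are therefore not independent, and no share was taken over genes that fell in vivo. From 10.5 to 22.5 dpp 3 of the 10 were called lower, a share near the 27.9% of all genes. From 22.5 to 36.5 dpp 5 of the 10 were called lower, beside 27.5% of all genes. The share of all genes that fell in at least 1 of these steps, which cannot be smaller than either, was not counted. Srxn1 and Slc7a11 followed other courses and changed the sign of their difference from the testis between culture days.

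The samples were testes of wild-type CD-1 mice, an outbred stock, sequenced as polyA RNA. In vivo tissue was taken at 6.5 dpp (4 libraries), 10.5 dpp (3 libraries), 22.5 dpp (3 libraries) and 36.5 dpp (2 libraries). Explants of 6.5 dpp testes were kept in organotypic culture, in α-MEM with a serum replacement, gentamicin and retinol, for 4 days (D4, 3 libraries), 16 days (D16, 2 libraries) or 30 days (D30, 4 libraries), so that D4 matched 10.5 dpp, D16 matched 22.5 dpp and D30 matched 36.5 dpp. The tissue was fresh except in 3 libraries at 6.5 dpp and 1 at D30, which came from controlled slow freezing (CSF). Explants were pooled for each library and their necrotic centre was cut away before RNA extraction, so the values describe the outer tissue. Whole tissue holds germ and somatic cells together, and fewer cells of a type and less RNA per cell cannot be told apart in any of the values below.

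Libraries held 28351546 to 69029328 counts. At 6.5 dpp, fresh replicate 3 was identical to fresh replicate 2 in every gene and was counted with it as 1 library. Fresh replicate 1 of the same age was left out because across genes its rank correlation was 0.985 with D16 replicate 1 and 0.928 with fresh replicate 2 of its own group, so that library went against its label. The library of 6.5 dpp CSF replicate 3 was kept but stood off from the other 3 of its age in several lists. Its red cell markers summed to 139 CPM (36 to 51.6 CPM in the others), its endothelial markers to 114 CPM (203 to 224 CPM) and its spermatogonia markers to 184 CPM (341 to 437 CPM). The study lists fewer frozen libraries at 6.5 dpp than the labels do. Levels are CPM, that is counts scaled to a common library total. Differences were tested with edgeR on TMM-scaled counts over 21 libraries and called at an adjusted p under 0.05. TMM factors at 36.5 dpp were lower than at D30 by 0.639 on the log2 scale, so that fitted fold changes between these groups lie below the ratios of mean CPM by about that amount. Markers of other cells moved with age and culture. The summed level of 7 spermatid markers ran from 18880 to 24240 CPM at 36.5 dpp and from 456 to 2055 CPM at D30, and that of 7 Sertoli cell markers from 79.3 to 90.9 CPM at 36.5 dpp and from 616 to 999.9 CPM at D30.

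NRF2 is held in the cytoplasm by KEAP1, an adaptor that hands it to a CUL3 ubiquitin ligase for degradation. When oxidants or electrophiles modify KEAP1, NRF2 accumulates, enters the nucleus, pairs with a small MAF protein and binds the antioxidant response element, while BACH1 competes for the same element. Because the control acts mainly on the protein, the mRNA of Nfe2l2 need not follow the activity of NRF2. The targets make glutathione (Slc7a11, Gclc, Gclm), return it to its reduced form (Gsr), run the thioredoxin and peroxiredoxin cycle (Txnrd1, Prdx1, Srxn1), reduce quinones (Nqo1) and break down haem (Hmox1). In the testis these systems serve dividing and meiotic germ cells as well as Leydig cells, whose steroid synthesis yields oxidants.

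The core of the antioxidant response element can be written TGACNNNGC. Promoter windows of 250 bases before to 50 after a start site came from RefSeq (GRCm38.p6) for 7 of the 10 genes, as 9 windows, and 5 windows of 5 genes held the core on either strand. Of all 32851 RefSeq windows of this length, 12.4% held it. The stretches around the matches are shown because they hold the letters of the core, with the match in capitals, read along the strand of the gene. A match is a run of letters and not a measured site.
Gclm, chr3:122245393-122245461, plus strand: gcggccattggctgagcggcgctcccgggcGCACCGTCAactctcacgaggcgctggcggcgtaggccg
Txnrd1, chr10:82859084-82859152, plus strand: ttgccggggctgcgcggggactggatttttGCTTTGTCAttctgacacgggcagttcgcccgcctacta
Prdx1, chr4:116685436-116685504, plus strand: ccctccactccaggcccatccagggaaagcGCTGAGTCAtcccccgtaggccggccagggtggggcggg
Nfe2l2, chr2:75704865-75704913, minus strand: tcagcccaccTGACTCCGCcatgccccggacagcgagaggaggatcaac
Srxn1, chr2:152105542-152105570, plus strand: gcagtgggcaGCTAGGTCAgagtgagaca

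Counted from the start site, the matches began at base -134 in Gclm, -92 in Txnrd1 (the second of its 3 windows), -133 in Prdx1 and -240 in Nfe2l2. In Srxn1 the match lay past the start, at base 29. The letters read on the strand of the gene in Nfe2l2 and on the other strand in the rest. The match of Prdx1, TGACTCAGC, also holds the binding letters of the AP-1 factors, a form found in 0.454% of all windows. No match was found in the windows of Nqo1 and Slc7a11, which says only that these letters are not in them. Near forms of the core were not searched, such as tgagtcagc, which the window of Srxn1 holds before the start. Hmox1, Gclc and Gsr had no window.

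Nfe2l2 (chr2:75675513-75704663, positions of whole genes here being those of RefSeq on GRCm38) itself declined with age in vivo and was higher in the older explants than in testes of the same age. Its level was 154, 163, 163 and 160 CPM in the 4 libraries at 6.5 dpp and 175, 170 and 174 CPM at 10.5 dpp. It was 44.5, 67.3 and 47.5 CPM at 22.5 dpp and 24.9 and 22.2 CPM at 36.5 dpp. Explants held 177, 175 and 154 CPM at D4, 117 and 155 CPM at D16, and 120, 139, 167 and 146 CPM at D30. The explants overlapped with the testis at D4 and lay above it in every library at D16 and D30. Between 10.5 and 22.5 dpp Nfe2l2 fell by 1.42 ± 0.149 (SE) on the log2 scale (edgeR adjusted p = 3.46e-07), and between 22.5 and 36.5 dpp it fell by a further 0.65 ± 0.167 (adjusted p = 0.00385). At D16 it was 2.31-fold higher than at 22.5 dpp (log2 1.21 ± 0.161, adjusted p = 6.68e-05), and at D30 it was 3.89-fold higher than at 36.5 dpp (log2 1.96 ± 0.172, adjusted p = 1.07e-07). At D4 the log2 difference of 0.05 ± 0.146 from 10.5 dpp did not pass the test (adjusted p = 0.94).

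**Figure D1:**
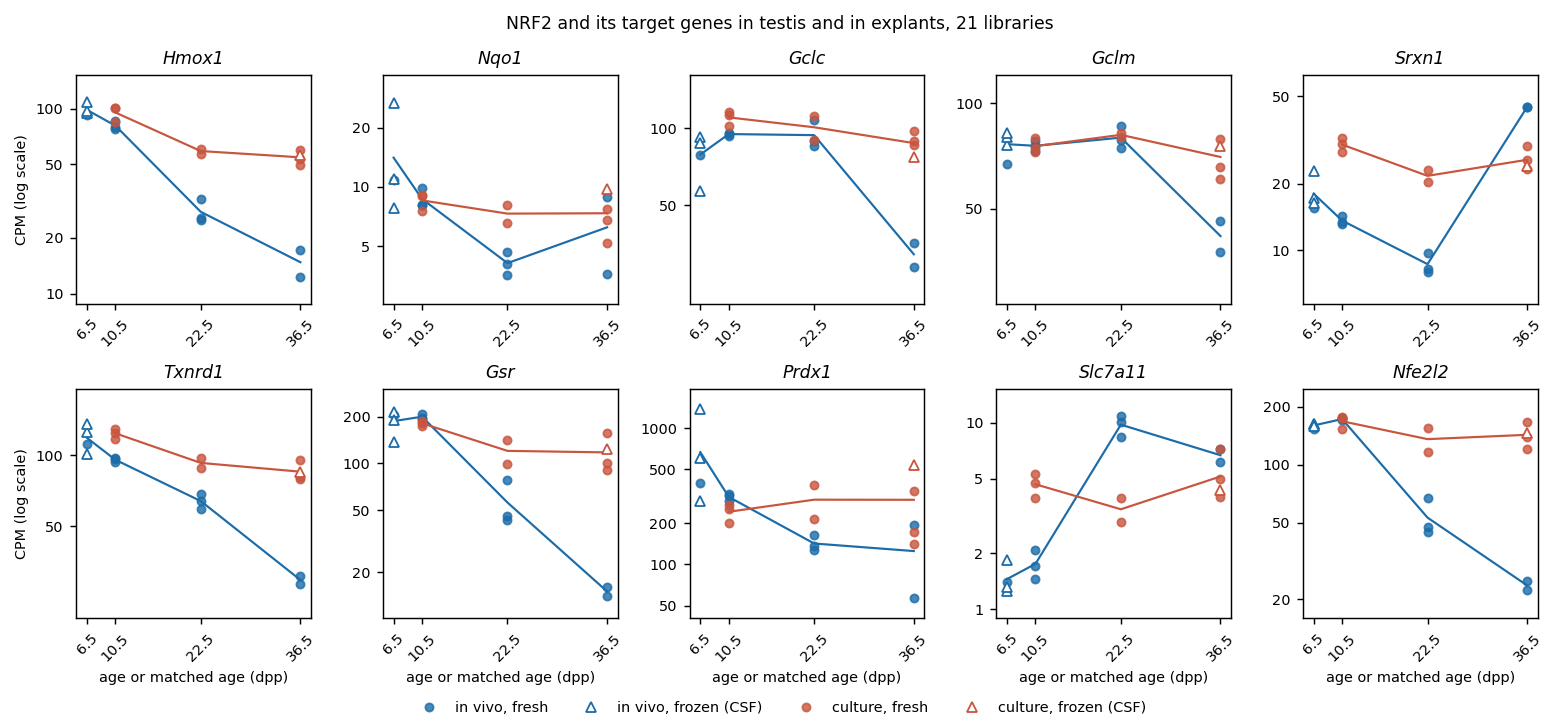
Level of each of the 10 genes in CPM (log axis) against age in dpp, or matched age for explants; each point is a library, triangles are frozen tissue, and lines join the means of 4 ages in vivo (blue) and 3 culture days (red). Nfe2l2, Gsr, Hmox1 and Txnrd1 decline in vivo, and from D16 on the explants lie higher. Srxn1 turns up only at 36.5 dpp, and Slc7a11 of the explants lies above the testis at 10.5 dpp and below it at 22.5 dpp.

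Gsr (chr8:33653238-33698162), the reductase that restores reduced glutathione with NADPH, had the widest range of the 10, with mean levels 13.3-fold apart. It stood at 205, 215, 191 and 137 CPM at 6.5 dpp and at 208, 197 and 194 CPM at 10.5 dpp. It then stood at 43.5, 78.7 and 45.9 CPM at 22.5 dpp and at 14.1 and 15.9 CPM at 36.5 dpp. Explants held 187, 173 and 183 CPM at D4, 98.9 and 142 CPM at D16, and 100.5, 90.4, 156 and 124 CPM at D30. At D4 every library lay below those of 10.5 dpp, with a log2 difference of -0.05 ± 0.202 that was not called (adjusted p = 0.962). From D16 on, the explants were above the age-matched testis in every library. Gsr fell by 1.56 ± 0.206 on the log2 scale from 10.5 to 22.5 dpp (adjusted p = 5.12e-06) and by 1.37 ± 0.238 from 22.5 to 36.5 dpp (adjusted p = 0.00019). It was 1.95-fold higher at D16 than at 22.5 dpp (log2 0.96 ± 0.223, adjusted p = 0.00605). That call was lost with only the groups compared in the fit (log2 1.02, adjusted p = 0.0739) and without D16 replicate 2 (log2 0.71). At D30 it was 5.00-fold higher than at 36.5 dpp (log2 2.32 ± 0.242, adjusted p = 5.96e-07).

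Hmox1 (chr8:75093618-75100593), the inducible haem oxygenase that opens the haem ring and frees iron, also fell with age. Its levels were 92.5, 95.2, 97.0 and 109 CPM at 6.5 dpp, 79.4, 77.8 and 85.7 CPM at 10.5 dpp, 24.9, 32.5 and 25.6 CPM at 22.5 dpp, and 17.2 and 12.3 CPM at 36.5 dpp. They were 84.3, 100.9 and 101.1 CPM at D4, 57.2 and 60.9 CPM at D16, and 49.5, 53.4, 59.5 and 55.9 CPM at D30. The groups overlapped at D4, and at D16 and D30 the explants were above the testis in every library. In vivo Hmox1 fell by 1.26 ± 0.149 on the log2 scale from 10.5 to 22.5 dpp (adjusted p = 1.4e-06). It was the only gene of the 10 called between D4 and D16, where it fell by 0.64 ± 0.166 (adjusted p = 0.00797). Its excess in explants was 1.92-fold at D16 (log2 0.94 ± 0.162, adjusted p = 0.000633) and 2.37-fold at D30 (log2 1.25 ± 0.165, adjusted p = 6.38e-06).

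Macrophages express Hmox1 when they clear red cells. Their 8 markers summed to 133 to 173 CPM at 10.5 dpp and 34.5 to 39.7 CPM at D4, with 6 called lower, while Hmox1 was not called between these groups (log2 0.32 ± 0.146, adjusted p = 0.229). At 22.5 dpp the sum was 193 to 289 CPM and at D16 160 to 171 CPM, with 1 called lower and none higher, while Hmox1 was higher at D16. The sum was 87 to 102.5 CPM at 36.5 dpp and 202 to 279 CPM at D30, with 5 called higher. The part of macrophages in the Hmox1 values was not tested. Of the red cell markers, Hba-a2 was at or below 3 counts in every library of each group. In explants so was Hbb-bt on each culture day, Slc4a1 at D4 and D16, and Hba-a1 at D16 and D30. The summed level of the 5 measured was 11.8 to 139 CPM over the 21 libraries, and in explants it rests on fewer genes than in vivo.

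The pair that forms glutamate-cysteine ligase, the rate-limiting enzyme of glutathione synthesis, changed less. Gclc (chr9:77754535-77794489), the catalytic subunit, stood at 56.6 to 92.8 CPM at 6.5 dpp, 93.7 to 96.2 CPM at 10.5 dpp and 85.5 to 107.8 CPM at 22.5 dpp. At 36.5 dpp its levels were 28.7 and 35.4 CPM, below the 77.2 to 97.5 CPM of the D30 libraries. Gclc fell by 1.04 ± 0.181 on the log2 scale from 22.5 to 36.5 dpp (adjusted p = 0.000193) and was 1.75-fold higher at D30 than at 36.5 dpp (log2 0.81 ± 0.172, adjusted p = 0.000515). At D16 the log2 difference from 22.5 dpp was -0.05 ± 0.175 and was not called, with levels of 90 and 112 CPM that overlapped those of the testis.

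Gclm (chr3:122245487-122267215), the modifier subunit that raises the affinity of the enzyme for glutamate, had the narrowest range of the 10, with group means 1.94-fold apart. It stood at 67.2 to 82.0 CPM at 6.5 dpp, 73.1 to 78.0 CPM at 10.5 dpp and 74.4 to 86.3 CPM at 22.5 dpp. Its levels were 46.1 and 37.5 CPM at 36.5 dpp, and 60.9 to 82.3 CPM over the 9 explant libraries. None of the 3 differences between explants and age-matched testis passed the test, with log2 values of 0.09 ± 0.148 at D4, -0.13 ± 0.166 at D16 and 0.12 ± 0.158 at D30. With scaling on library size alone the difference at D30 was 0.75 and was called (adjusted p = 0.000383), while with RLE factors it was -0.15, so no direction is given for Gclm at D30. The step up from 10.5 to 22.5 dpp (log2 0.37 ± 0.148, adjusted p = 0.0383) and the step down to 36.5 dpp (log2 -0.42 ± 0.168, adjusted p = 0.0436) passed the test. The first was lost with any 1 library of its groups left out (adjusted p from 0.0611 to 0.108). The second was lost in 8 of 14 alternatives. Among them were RLE factors (adjusted p = 0.287), DESeq2 (adjusted p = 0.255) and any 1 library of 22.5 dpp left out (adjusted p from 0.0694 to 0.0817). The ratio of Gclc to Gclm within a library, which no scaling affects, was 1.23 to 1.28 at 10.5 dpp, 1.403 to 1.525 at D4 and 0.622 to 0.943 at 36.5 dpp, where both libraries lay below the 1.02 to 1.60 of D30. Part of the exons of Gclm (3.88%) lies on a processed pseudogene on the same strand, Gm6061, and a further 4.71% lies under Gm17494 on the opposite strand, so reads there could be assigned to more than 1 gene. A stretch of 287 bases also has 97.9% identity with the protein-coding gene Ppia, and other processed pseudogenes share similar stretches.

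Slc7a11 (chr3:50364936-50499087) encodes xCT, the light chain of the antiporter that brings cystine into the cell for glutathione synthesis. It was the lowest of the 10 in each group per kb of exon and rested on 52 to 80 counts a library at 6.5 and 10.5 dpp. In vivo it stood at 1.399, 1.25, 1.31 and 1.83 CPM at 6.5 dpp, at 1.71, 2.09 and 1.45 CPM at 10.5 dpp, at 10.9, 10.1 and 8.44 CPM at 22.5 dpp, and at 7.22 and 6.20 CPM at 36.5 dpp. In explants it stood at 4.76, 5.32 and 3.97 CPM at D4, 2.94 and 3.93 CPM at D16, and 5.02, 4.00, 7.23 and 4.37 CPM at D30. The explants lay above the testis at D4 and below it at D16 in every library, and at D30 fresh replicate 3 exceeded both libraries of the testis.

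From 10.5 to 22.5 dpp Slc7a11 was 6.88-fold higher (log2 2.78 ± 0.266, adjusted p = 1.11e-07). It was 2.85-fold higher at D4 than at 10.5 dpp (log2 1.51 ± 0.257, adjusted p = 0.000894) and 3.28-fold higher at D4 than in the uncultured 6.5 dpp testis (log2 1.71 ± 0.237, adjusted p = 5.27e-05). At D16 it was 3.19-fold lower than at 22.5 dpp (log2 -1.67 ± 0.294, adjusted p = 0.000775). At D30 the log2 difference from 36.5 dpp was -1.02 ± 0.256 (adjusted p = 0.0019), and it was -0.38 and not called with scaling on library size alone (adjusted p = 0.2). The difference between the culture effects at D16 and D4 was itself large (log2 -3.18 ± 0.391, adjusted p = 0.000155). A stretch of 373 bases of its exons has 96.2% identity with Tuba1b and similar identity with other tubulin genes, so a part of its reads may be uncertain. Markers of Leydig cells summed to 988 to 1144 CPM at 10.5 dpp and 291 to 509 CPM at D4, and markers of spermatocytes to 3965 to 6040 CPM at 22.5 dpp and 1637 to 4257 CPM at D16, and their part in the Slc7a11 values was not tested.

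Srxn1 (chr2:152105524-152111376), sulfiredoxin, repairs peroxiredoxins that have been over-oxidised at their active cysteine. Its levels in vivo were 15.6, 17.3, 16.4 and 22.9 CPM at 6.5 dpp, 13.4, 13.2 and 14.3 CPM at 10.5 dpp, and 8.00, 8.23 and 9.70 CPM at 22.5 dpp. At 36.5 dpp they were 44.8 and 44.6 CPM, the highest of any group. Explants held 30.4, 32.2 and 27.9 CPM at D4, 20.4 and 23.1 CPM at D16, and 25.7, 23.5, 29.6 and 24.2 CPM at D30. Thus the explants were above the testis at D4 and D16 and below it at D30, in every library each time.

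The step from 22.5 to 36.5 dpp was 7.34-fold (log2 2.88 ± 0.203, adjusted p = 2.14e-08). Spermatid markers summed to 38.4 to 184 CPM at 22.5 dpp and 18880 to 24240 CPM at 36.5 dpp, and their part in the step was not tested. Srxn1 was 2.35-fold higher at D4 than at 10.5 dpp (log2 1.23 ± 0.182, adjusted p = 0.000232) and 1.69-fold higher than in the 6.5 dpp testis (log2 0.75 ± 0.167, adjusted p = 0.00359). It was 2.25-fold higher at D16 than at 22.5 dpp (log2 1.17 ± 0.199, adjusted p = 0.000587) and 2.71-fold lower at D30 than at 36.5 dpp (log2 -1.44 ± 0.183, adjusted p = 4.28e-06). Apart from a stricter limit on size, no alternative run lost any of these calls.

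Txnrd1 (chr10:82833951-82897724), the cytosolic thioredoxin reductase, was lower at 36.5 dpp than at 22.5 dpp and higher at D30 than at 36.5 dpp. Its levels were 101 to 136 CPM at 6.5 dpp, 93.7 to 97.3 CPM at 10.5 dpp, 59.3 to 68.5 CPM at 22.5 dpp and 28.5 and 30.7 CPM at 36.5 dpp. In explants they were 117 to 129 CPM at D4, 88.1 and 97.4 CPM at D16, and 79.0 to 95.6 CPM at D30. The explants lay above the age-matched testis in every library on each of the 3 culture days. Txnrd1 was 1.84-fold higher at D30 than at 36.5 dpp (log2 0.88 ± 0.142, adjusted p = 4.13e-05). The difference of 0.46 ± 0.128 at D4 was called (adjusted p = 0.0323) but was lost with any 1 library of these groups left out (adjusted p from 0.0508 to 0.125), and that of 0.38 ± 0.142 at D16 was not called (adjusted p = 0.0597). In vivo Txnrd1 fell by 0.60 ± 0.146 on the log2 scale from 22.5 to 36.5 dpp (adjusted p = 0.00249).

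Prdx1 (chr4:116685599-116700000), an abundant peroxiredoxin that reduces hydrogen peroxide, was the highest of the 10 genes per kb of exon in each group, and had the largest SE of the 10 in each comparison of explants with testis. It stood at 393, 294, 601 and 1378 CPM at 6.5 dpp, at 289.5, 319 and 330 CPM at 10.5 dpp, at 138, 163 and 127 CPM at 22.5 dpp and at 194 and 56.3 CPM at 36.5 dpp. In explants it stood at 202, 274 and 254 CPM at D4, 380 and 217 CPM at D16, and 141, 347, 172 and 532 CPM at D30. The highest value of 6.5 dpp was that of CSF replicate 3, without which the mean of that age was 429 CPM in place of 666 CPM, and the highest of D30 that of its frozen library. No comparison called Prdx1, and the log2 differences between explants and testis were -0.28 ± 0.551 at D4, 0.92 ± 0.608 at D16 and 0.62 ± 0.6002 at D30. Processed pseudogenes Gm21399 and Gm7204 share 597 bases with it at 98.3% and 97.5% identity, so its counts may include or lack reads of these.

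Nqo1 (chr8:107388225-107403205), a quinone reductase often used as a readout of NRF2, was low and scattered with Prdx1. It stood at 10.9, 7.82, 11.05 and 26.6 CPM at 6.5 dpp, at 8.08, 9.90 and 8.09 CPM at 10.5 dpp, at 4.07, 4.67 and 3.57 CPM at 22.5 dpp and at 8.85 and 3.63 CPM at 36.5 dpp. Explants held 7.52, 8.97 and 9.16 CPM at D4, 8.07 and 6.58 CPM at D16, and 5.17, 7.73, 6.80 and 9.72 CPM at D30. It was not called between explants and testis, with log2 differences of 0.06 ± 0.394 at D4, 0.68 ± 0.4399 at D16 and -0.40 ± 0.416 at D30. The call between 22.5 and 36.5 dpp (log2 1.11 ± 0.441, adjusted p = 0.0441) rested on 36.5 dpp replicate 1, without which it was 0.35 (adjusted p = 0.623).

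**Figure D2:**
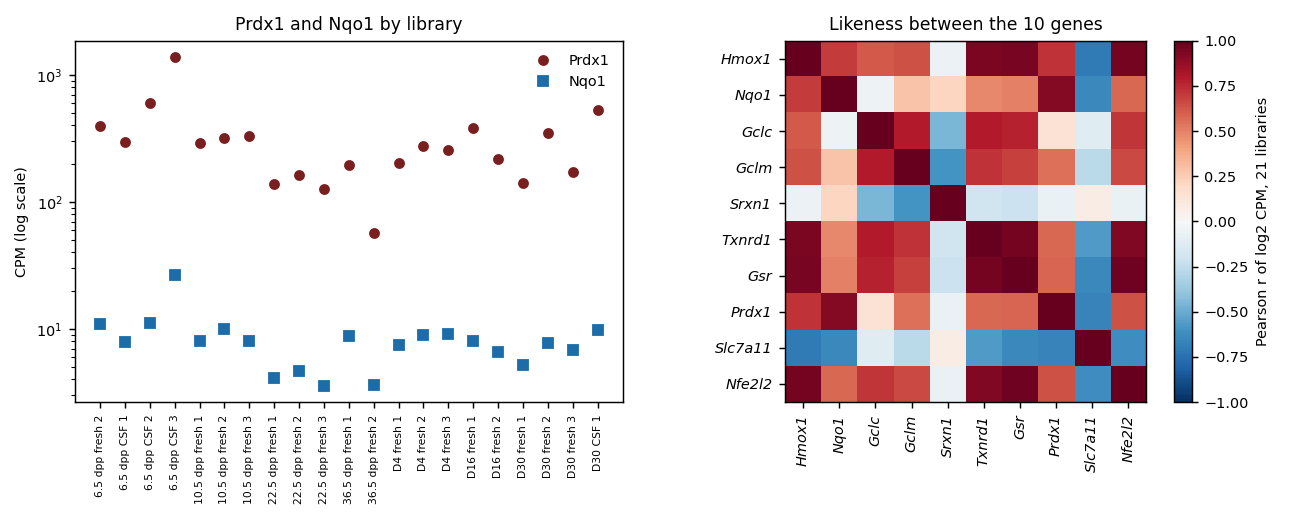
Left, Prdx1 and Nqo1 in CPM (log axis) in each of the 21 libraries, where both peak in 6.5 dpp CSF replicate 3 at 1378 and 26.6 CPM; right, Pearson r of log2 CPM between the 10 genes over the same libraries, with Hmox1, Txnrd1, Gsr and Nfe2l2 as a block of high values and Srxn1 and Slc7a11 apart.

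The libraries that were high in Prdx1 were also high in Nqo1, with a Pearson r of 0.915 and a Spearman rho of 0.848 over 21 libraries.

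Likeness between genes was read as Pearson r of log2 CPM over the 21 libraries, which are not independent since libraries of a group share age and cell makeup. Nfe2l2 ran with Gsr (r = 0.971), Hmox1 (0.954) and Txnrd1 (0.929). Srxn1 ran with none of them, its r with Nfe2l2 being -0.07 and that with Slc7a11 0.08, and Slc7a11 ran against Nfe2l2 (-0.62) and Hmox1 (-0.71). The genes most like Gsr were Vps26b (r = 0.996) and Zfp7 (0.994), but 2985 genes passed 0.9 with it. Hmox1 was most like Bzw2 and Ghr (both 0.987), Nfe2l2 most like Galnt1 (0.995) and Polr3g (0.991), and Txnrd1 most like Matn2 (0.979) and Cd276 (0.976), each among 2000 or more genes past 0.9. Srxn1 had only 2 genes past 0.9, Dusp10 (0.948) and Ppm1a (0.907), and Slc7a11 had 5, led by Hsd3b6 (0.944) and Slc22a6 (0.925). Nqo1 was closest to Ube2a (0.963) and Eif2s3y (0.962), Prdx1 to Psma2 (0.991) and Magoh (0.984), Gclc to Mindy2 (0.979) and Rmdn3 (0.978), and Gclm to Zdhhc13 (0.953) and Ptpn2 (0.949). Genes past 0.9 numbered 90 for Nqo1, 324 for Prdx1, 334 for Gclc and 35 for Gclm. Spearman rho was lower for some of these pairs, at 0.636 for Gclm with Zdhhc13, 0.686 with Ptpn2, and 0.799 for Gclc with Mindy2. Between Gclc and Gclm r was 0.794 and rho 0.29.

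Levels relative to Nfe2l2 within the same library do not depend on scaling. Some of these ratios lay apart between testis and explants and others overlapped. Nfe2l2 itself had means of 23.6 CPM at 36.5 dpp and 143 CPM at D30, and of 53.1 CPM at 22.5 dpp and 136 CPM at D16. A gene of unchanged CPM would therefore also have a lower ratio in these explants. The share of all genes whose ratios to Nfe2l2 lay apart was not taken. Between 36.5 dpp and D30 the ratios of all targets but Gsr and Prdx1 lay apart, lower at D30 in every library. That of Gclm was 1.69 to 1.85 at 36.5 dpp and 0.365 to 0.566 at D30, and that of Gclc 1.15 to 1.59 and 0.527 to 0.717. For Txnrd1 it was 1.14 to 1.38 and 0.567 to 0.673, and for Nqo1 0.163 to 0.356 and 0.0408 to 0.0664. The ratio of Srxn1 to Nfe2l2 was 1.80 and 2.01 in the libraries of 36.5 dpp and 0.165 to 0.214 at D30. For Slc7a11 it was 0.150 to 0.244 at 22.5 dpp and 0.279 to 0.290 at 36.5 dpp, against 0.0252 to 0.0433 over the explants of D4, D16 and D30, and 0.00764 to 0.0123 at 6.5 and 10.5 dpp. That of Hmox1 ran from 0.357 to 0.692 over the 21 libraries, and at D30 it was 0.357 to 0.411, below the 0.555 and 0.692 of 36.5 dpp. The ratio of Gsr to Nfe2l2 overlapped between 36.5 dpp (0.567 to 0.716) and D30 (0.649 to 0.934), as did that of Prdx1 (2.53 to 7.81 and 1.03 to 3.63). At 22.5 dpp and D16 the ratios of Srxn1 (0.122 to 0.204 and 0.149 to 0.175) and Hmox1 (0.483 to 0.560 and 0.392 to 0.490) overlapped too. These ratios are given as values without a test.

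Counted over the 10, the difference between D4 and 10.5 dpp was called higher for 3 genes (Srxn1, Txnrd1 and Slc7a11) and lower for none, where 4.92% of all genes tested were called higher and 3.18% lower. The median log2 difference of the 10 was 0.20, and that of all genes -0.01. Between D16 and 22.5 dpp 4 were higher (Hmox1, Srxn1, Gsr and Nfe2l2) and 1 lower (Slc7a11), with 14% and 11.8% of all genes, and medians of 0.80 and -0.08. Between D30 and 36.5 dpp 5 were higher (Hmox1, Gclc, Txnrd1, Gsr and Nfe2l2) and 2 lower (Srxn1 and Slc7a11), with 32.4% and 35.0% of all genes, and medians of 0.71 and -0.03. The share of higher genes among all called was 60.7% at D4, 54.3% at D16 and 48.0% at D30. It became 50.1%, 68.0% and 65.8% with scaling on library size alone, and 57.7%, 43.9% and 40.0% with RLE factors. The 6 genes that were called with the same sign under these scalings at D30 were Hmox1, Gclc, Srxn1, Txnrd1, Gsr and Nfe2l2.

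**Figure D3:**
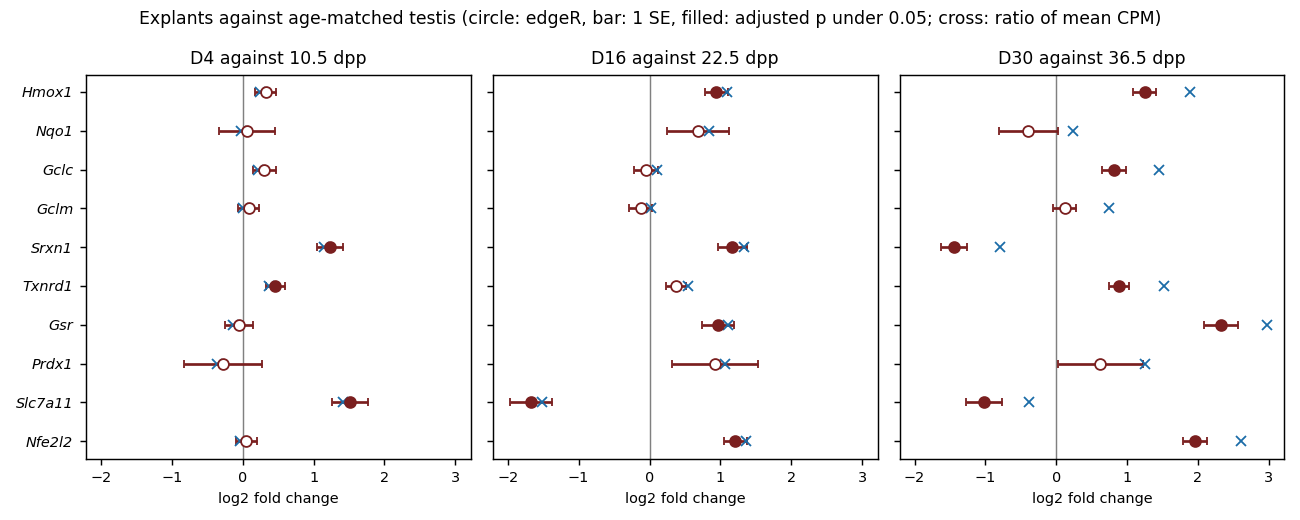
Log2 fold change of explants against age-matched testis for the 10 genes, with fitted values (circles, bars of 1 SE, filled where the adjusted p is under 0.05) and ratios of mean CPM (crosses). At D30 the crosses lie to the right of the circles by about 0.639 throughout, and Srxn1 moves from 1.23 at D4 to -1.44 at D30.

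Whether the culture effect itself differed between days was tested as a difference of differences, in which 5.26% of all genes were higher and 4.36% lower at D16 than at D4. There, 2 of the 10 were higher (Gsr at 1.02 ± 0.301 and Nfe2l2 at 1.16 ± 0.218 on the log2 scale) and 1 lower (Slc7a11, given above). The call of Gsr (adjusted p = 0.0411) was lost in 12 of 20 alternatives, the lowest value being 0.77 without D16 replicate 2 (adjusted p = 0.251). At D30 against D4, 3 were higher and 2 lower, beside 25.8% and 20.7% of all genes. Those higher were Gsr (2.37 ± 0.307), Nfe2l2 (1.91 ± 0.220) and Hmox1 (0.92 ± 0.217), and those lower Srxn1 (-2.67 ± 0.259) and Slc7a11 (-2.53 ± 0.361). At D30 against D16, 3 were higher (Gsr, Nfe2l2 and Gclc) and 1 lower (Srxn1 at -2.61 ± 0.271), beside 11.5% and 8.63% of all genes. Of these, Nfe2l2 (adjusted p = 0.0288) lost its call in 7 of 20 alternatives, Gclc (adjusted p = 0.0206) in 3 and Gsr (adjusted p = 0.00745) in 2.

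Along the ages in vivo no gene of the 10 was called between 6.5 and 10.5 dpp, a step in which 0.675% of all genes were higher and 0.467% lower. By unadjusted p under 0.05 the step held 5 of the 10 and 2705 of all genes, and DESeq2 called 1 of the 10. From 10.5 to 22.5 dpp 2 were higher (Slc7a11 and Gclm) and 3 lower (Hmox1, Gsr and Nfe2l2), beside 33.6% and 27.9% of all genes. From 22.5 to 36.5 dpp 2 were higher (Srxn1 and Nqo1) and 5 lower (Gclc, Gclm, Txnrd1, Gsr and Nfe2l2), beside 23.3% and 27.5%. The share of higher genes among all called in this step was 45.9%, and it was 56% with RLE factors and 27.9% with scaling on library size alone. For the step from 10.5 to 22.5 dpp it was 54.6%, 57.2% and 43.8% in the same order.

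From the 6.5 dpp testis to D4, 3 were higher and none lower, where 10.8% of all genes were higher and 10.1% lower. The 3 were Srxn1 and Slc7a11, given above, and Gclc (log2 0.52 ± 0.145, adjusted p = 0.0163), whose call was lost in 5 of 16 alternatives. Among these were 6.5 dpp fresh replicate 1 kept (adjusted p = 0.108), only the groups compared (0.0679), and D4 replicate 1 (0.0626) or D4 replicate 2 (0.0605) left out. Another was fresh libraries only, which leaves 1 library at 6.5 dpp (log2 0.56). At 6.5 dpp 3 of 4 libraries were frozen while all of D4 were fresh, so this step also differs in freezing. From D4 to D16 none was higher and only Hmox1 was lower, beside 18.4% and 5.48% of all genes, and DESeq2 called 2 of the 10. From D16 to D30 edgeR called none, beside 1.46% and 0.332%, and 1 of the 10 had an unadjusted p under 0.05 (Slc7a11, with log2 0.61 ± 0.271).

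Freezing was tested with stage held in the fit, so that it rested on 6.5 dpp (3 frozen and 1 fresh library) and D30 (1 frozen and 3 fresh), and edgeR called 0% of all genes and none of the 10. At an unadjusted p under 0.05 there were 1261 genes, with Prdx1 alone among the 10 (log2 1.13 ± 0.487, adjusted p = 0.648), and DESeq2 called 4 of all genes and none of the 10. In the frozen D30 library Hmox1 stood at 55.9 CPM, inside the 49.5 to 59.5 CPM of the fresh libraries. For Nfe2l2 (146 CPM), Gsr (124 CPM), Srxn1 (24.2 CPM) and Slc7a11 (4.37 CPM) that library was likewise inside the fresh range. Gclc at 77.2 CPM lay below the 86.2 to 97.5 CPM of the fresh libraries, and Nqo1 and Prdx1 above them.

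For the lists that follow, the shares of all genes called higher and lower are those given above, 4.92% and 3.18% at D4, 14% and 11.8% at D16, and 32.4% and 35.0% at D30. Around these genes stands the machinery that controls NRF2, read from 12 genes (Keap1, Cul3, Rbx1, Bach1, Mafg, Maff, Mafk, Sqstm1, Nfe2l1, Btrc, Fbxw11 and Gsk3b). At D4 only Maff was called, higher by 2.16 on the log2 scale (adjusted p = 6.4e-07). Maff, a small MAF partner that is itself inducible, stood at a mean of 15.8 CPM at D4 and 3.75 CPM at 10.5 dpp, and it was higher at D16 by 3.06 and at D30 by 2.61. At D16 5 of the 12 were higher and 2 lower. Mafk, a second small MAF, was higher by 1.21 and Sqstm1, which encodes the p62 adaptor that draws KEAP1 into autophagy, by 0.79, while Btrc (-1.04) and Cul3 (-0.65) were lower. At D30 7 were higher and 4 lower, the latter a share near that of all genes. Mafk was higher by 2.07 and Fbxw11, an adaptor of a ubiquitin ligase for NRF2, by 1.59, whereas Btrc (-1.18), the related adaptor, Cul3 (-1.08) and the kinase Gsk3b (-1.34) were lower. Named after their values were seen, Keap1 (log2 -0.92) was lower and Bach1 (2.09) higher at D30.

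NADPH, which Gsr and Txnrd1 consume, is supplied by 6 listed enzymes. At D4 only G6pdx was called, higher by 0.61 (adjusted p = 0.0434). G6pdx, the entry enzyme of the pentose phosphate pathway, had means of 106 CPM at D4 and 73.6 CPM at 10.5 dpp, 88.1 CPM at D16 and 29.0 CPM at 22.5 dpp, and 83.7 CPM at D30 and 10.6 CPM at 36.5 dpp. At D16 4 of 6 were higher and none lower, with G6pdx at 1.46, Tkt, a transketolase, at 1.19 and Pgd, the next dehydrogenase of the pathway, at 0.72. At D30 4 of 6 were higher and none lower, with G6pdx at 2.34, Pgd at 1.91 and Tkt at 1.02.

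Of 14 other targets that use glutathione or thioredoxin, none was called at D4. At D16 4 were higher and none lower, namely the glutathione transferases Gstm3 (1.97), Mgst1 (1.58), Gstm1 (0.58) and Gsta3 (1.93, named after its value was seen). Gstm3 was scarce, with means of 0.314 CPM at D16 and 0.0694 CPM at 22.5 dpp. None of the 4 calls was made when 6.5 dpp fresh replicate 1 was kept in the fit. At D30 5 of the 14 were higher, a share near that of all genes, and none lower, and those with the smallest p were Gstm1 (0.70), Gsta4 (1.63) and Slc3a2 (0.46), the heavy chain that partners the product of Slc7a11. At D30 the count was 2 with RLE factors and 11 with scaling on library size alone. Of 14 targets in detoxification, haem and iron, 1 was lower at D4, 4 were higher and 1 lower at D16, and 6 were higher and 2 lower at D30. The lower one was Ephx1, microsomal epoxide hydrolase, at -0.92, -1.41 and -2.80 in turn, with means of 42.0 CPM at D30 and 187 CPM at 36.5 dpp. Osgin1 joined it at D30 (-3.60), with means of 20.99 and 165 CPM. Ugdh, which makes UDP-glucuronate, was higher by 1.23 at D16 and 2.33 at D30, and Akr1b8, an aldo-keto reductase, by 0.91 and 1.85. Abcc1, an exporter of glutathione conjugates, was higher at D30 by 2.03, and Cbr3, a carbonyl reductase, at D16 by 1.36.

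Slc7a11 and several amino acid genes also answer to ATF4, the factor of the integrated stress response, for which 8 genes were read. At D4 4 of the 8 were higher and none lower, with Chac1, which breaks glutathione down, at 2.44, Sesn2 at 0.99 and Atf4 itself at 0.74. At D16 6 were higher and none lower, with Trib3, a pseudokinase that dampens ATF4, at 2.94, Asns, asparagine synthetase, at 0.92 and Chac1 at 2.06. At D30 5 were higher, among them Sesn2 (2.18), Atf4 (1.68) and Trib3 (3.30), and 2 lower, Asns (-1.41) and Ddit3 (-0.79). The part of ATF4 in the Slc7a11 values was not tested.

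**Figure D4:**
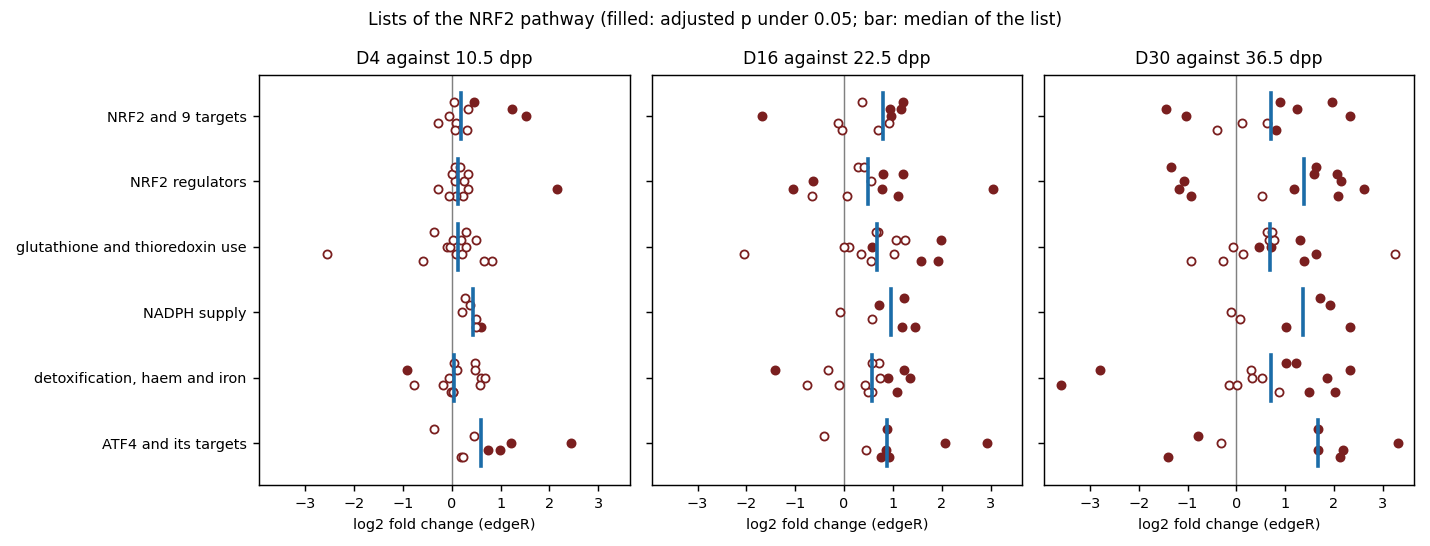
Log2 fold change of explants against age-matched testis for each gene (circles, filled where the adjusted p is under 0.05) of the 10 and of 5 further lists, with the median of each list as a bar. At D16 the medians of the 6 lists run from 0.48 to 0.96, while that of all genes was -0.08.

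Cell types changed between the same groups, and the values stand beside the counts above without a test of their part. Sertoli cell markers summed to 1264 to 1386 CPM at D4 and 1374 to 1471 CPM at 10.5 dpp, to 633 to 1003 CPM at D16 and 229 to 401 CPM at 22.5 dpp, with 6 of the 7 higher and 1 lower at D16, and 6 higher at D30. Peritubular markers summed to 952 to 1537 CPM at D30 and 141 to 242 CPM at 36.5 dpp, with 5 of 5 higher. Endothelial markers summed to 150 to 203 CPM at D30 and 18.2 to 22.1 CPM at 36.5 dpp, with 4 of 5 higher and 1 lower. Leydig cell markers were lower in 5 of 5 at D16 and at D30, and spermatid markers in 7 of 7 at D30. At D4 against 10.5 dpp, 6 of 8 macrophage markers, 3 of 5 Leydig cell markers and 3 of 4 red cell markers tested were lower, 3 of 5 endothelial markers were higher and 1 lower, and no spermatid or Sertoli cell marker was called.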

How the data were processed

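RNA libraries were prepared with a kit that keeps strand. For each library the authors mapped reads on the GRCm38 genome (STAR 2.7.3a) and obtained a count per NCBI gene (HTSeq 0.12.4). Whether counting used strand is not given in the sources used here. The deposited values are raw counts, 1 column per library (23 columns). Groups and replicate numbers follow the labels. From the counts, CPM on library totals were computed, and differences were tested with edgeR 4.0.16 in R 4.3.3 (filterByExpr, TMM factors, the quasi-likelihood test, p-values adjusted after Benjamini and Hochberg across the 19255 genes kept) in 1 fit of 7 groups, frozen with fresh. The code was tested on simulated data. Alternatives were RLE factors, library size only, DESeq2 1.42.0, no filter, fresh libraries only, only the groups compared, 6.5 dpp fresh replicate 1 kept, a replicate block, stricter thresholds and each library left out.

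The 10 genes and all lists were chosen with earlier results of these data known. The 10 are named throughout; of each other list, up to 3 called genes per direction with the smallest p in each comparison of explants with age-matched testis are named. Keap1, Bach1 and Gsta3 were added after their values were seen. For each of the 10, the 2 genes with the highest r are given. Positions of whole genes are of RefSeq on GRCm38, and lengths are of merged exons of GENCODE. The study calls the libraries of a group biological replicates, with explants pooled within each, and the labels do not tie them to animals. Depth was 28351546 to 69029328 counts a library.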

Additional observations from a re-analysis of the deposited data

Results flagged for a closer look

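No library stood apart by the gap test in the 20 sets of 4 libraries examined (10 genes at 6.5 dpp and at D30, Dixon's test at 95%), where chance would mark about 1 set in 20. The nearest was Nqo1 in 6.5 dpp CSF replicate 3 (26.6 CPM against 7.82 to 11.05 CPM), which fell just short of the limit.

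The difference between explants and age-matched testis differed between culture days for some of the genes, by a test of the difference itself. From D4 to D16 it moved by 1.018 for Gsr, 1.158 for Nfe2l2 and -3.182 for Slc7a11 on the log2 scale. From D4 to D30 it moved by 0.9227 for Hmox1, 2.374 for Gsr, 1.909 for Nfe2l2, -2.672 for Srxn1 and -2.534 for Slc7a11. From D16 to D30 it moved by 0.8604 for Gclc, 1.357 for Gsr, 0.751 for Nfe2l2 and -2.607 for Srxn1. The call of Gsr from D4 to D16 was lost in 12 of 20 alternatives, and from D16 to D30 those of Nfe2l2 in 7 of 20, Gclc in 3 of 20 and Gsr in 2 of 20. These 3 tests share groups and are not independent of each other.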

How the results depend on the processing

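The counts of the 10 genes that were called depended on the setting as follows. With a log2 change of at least 2 and an adjusted p of at most 0.001, they were 0 at D4, 0 at D16, 1 at D30, 1 from 10.5 to 22.5 dpp, 1 from 22.5 to 36.5 dpp, 0 from 6.5 dpp to D4, 0 from D4 to D16, and 1 (D16 against D4), 3 (D30 against D4) and 1 (D30 against D16) for differences of the culture effect. With only the groups compared in the fit they were 5 at D4, 8 and 4 for the steps to 22.5 and to 36.5 dpp, and 5 and 1 for D16 against D4 and D30 against D16. With library size only, both differences of the culture effect to D30 gave 8. DESeq2 called 1 from 6.5 to 10.5 dpp and 2 from D4 to D16. With 6.5 dpp fresh replicate 1 kept, D4 to D16 gave 0. Without 3 libraries chosen for their high Prdx1 after the values were seen (6.5 dpp CSF replicate 3, the frozen D30 library and 36.5 dpp replicate 1), the count was 10 from 10.5 to 22.5 dpp and 3 from D4 to D16.

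Where a library left out leaves 36.5 dpp or D16 with 1 library, that library is assumed to vary like the other groups. Leaving out 1 library at a time gave 2 at D4, 0 to 1 from D4 to D16 (0 without D16 replicate 1) and 1 to 4 for D30 against D16 (1 without D16 replicate 1, 2 without 36.5 dpp replicate 1). Of 43 called values of single genes, 29 kept their call in every alternative other than the stricter limits, which were applied to the counts only, and none changed sign. Calls were lost for Gsr at D16, Slc7a11 at D30 and Txnrd1 at D4, as given above, for Gclm in both steps in vivo, for Nqo1 to 36.5 dpp, for Gclc from 6.5 dpp to D4 (adjusted p up to 0.124), for Hmox1 from D4 to D16 (up to 0.112), and for Gsr (up to 0.251), Nfe2l2 (up to 0.201) and Gclc (up to 0.143) in differences of the culture effect, also for Txnrd1 (0.137) and Nfe2l2 (0.118) from 22.5 to 36.5 dpp with only those groups fitted. The cause was not tested.

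Signs turned only for values that were not called. With library size only these were, on the log2 scale, Nqo1 -0.023, Gclm -0.0029 and Nfe2l2 -0.038 at D4, Gclc 0.103 and Gclm 0.027 at D16, and Nqo1 0.239 at D30. Gclc at D16 was 0.0097 with only its groups fitted, and -0.187 to 0.0798 with 1 library left out. At D30 Nqo1 was 0.197 without the 3 libraries and -0.909 to 0.347 with 1 library left out. Gclm at D30 was -0.146 with RLE factors and with DESeq2, and -0.0257 to 0.239 with 1 library left out, and Prdx1 was -0.0262 to 1.73 in the same way.

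The labels do not say whether equal replicate numbers pair the samples, and the main fit treated them as unpaired. Over 64 same-numbered pairs of libraries of different groups the correlation of deviations ran from -0.541 to 0.663. Its median was 0.0103, and -0.0103 for other numbers, and 8 of 21 libraries were most like one of their own number. These values cannot exclude a pairing. With a replicate block the counts were 3 at D4, 5 at D16, 7 at D30, 6 from 22.5 to 36.5 dpp and 2 for D16 against D4. The block lost Gclm to 36.5 dpp (adjusted p = 0.0525) and Gsr in D16 against D4 (adjusted p = 0.0559). Depth limits Slc7a11 most, at 52 to 80 counts a library at the youngest ages.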

Other observations

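The library labelled 6.5 dpp fresh replicate 1, which was left out above, held Hmox1 at 44.1 CPM, Gsr at 103 CPM and Nfe2l2 at 105 CPM, each below the 4 other libraries of its age. Its Slc7a11 level was 2.696 CPM and its Nqo1 level 3.57 CPM. With it kept, the mean of Hmox1 at 6.5 dpp was 87.6 ± 25.2 CPM (SD, n = 5) in place of 98.5 ± 7.42 CPM (SD, n = 4).

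Per kb of merged exon group means put the 10 genes in an order that differed by age. Prdx1, Gsr, Hmox1 and Nfe2l2 led at 10.5 dpp with group means of 102.8, 72.6, 46.2 and 45.6 CPM per kb. At D30 Prdx1 (97.9), Gsr (42.8), Nfe2l2 (37.7) and Hmox1 (31.2) led. At 36.5 dpp Prdx1 (41.2) was followed by Srxn1 (15.9), Gclc (8.51) and Hmox1 (8.44), and Gsr had moved from place 2 to place 7 (5.45 CPM per kb).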
